A study of Homo sapiens with 40 samples.

Results

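The genes described here are 7 steroid and nuclear hormone receptors, ESR1, ESR2, PGR, NR3C1, NR3C2, RARA and VDR, taken by name from the 60279 genes of the count tables. All 7 have a row in the table of each protocol. They were read in single T47D cells, a luminal breast cancer line known for its estrogen and progesterone receptors, at passage 10 and with no drug or genetic change. The study processed sorted cells with 3 plate-based full-length protocols, to compare what each recovers from the same kind of cell; the cells it processed with SMART-seq3 are not analysed here. These were the commercial NEBNext kit (NEB, 14 wells), the commercial SMART-seq HT kit (Takara, 13 wells) and the RNA arm of genome and transcriptome sequencing (G&T, 13 wells).

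Quality thresholds left 11 cells per protocol: G&T without wells C2 and F1, Takara without C2 and F1, and NEB without B2, F1 and F2. Reads on genes ranged from 658154 to 1166633 per kept cell in G&T, from 818512 to 1287911 in Takara, while NEB cells had 624772 to 963816. NEB reads fell on fewer genes: 4416 to 6719 per kept cell, against 9541 to 12794 in G&T and 10624 to 11855 in Takara. Synthetic ERCC spike-ins took 1.86% of reads on average in G&T, 0.968% in Takara, but 11.7% in NEB. All 6 luminal markers listed for the line (EPCAM, KRT8, KRT18, KRT19, GATA3, FOXA1) had reads in at least 6 of 11 cells in every protocol; EPCAM is no independent check, since cells were sorted on its protein. Of these markers, 4 were at least 2-fold lower in NEB than in Takara, among them KRT8 (84.8 against 5234 CPM) and KRT19 (566 against 7986). Of all genes compared in that pair, 42.3% were lower in NEB by this rule. GATA3 (667 against 649) and FOXA1 (63.0 against 44.8) were not lower. The 5 markers of other cell types (KRT5, KRT14, VIM, PTPRC, PECAM1) had reads in under 6 cells each and summed to 3.05 CPM in G&T, 2.13 in Takara; in NEB they summed to 18.1, where the reads were those of VIM. CPM is the number of reads on a gene when the reads on all genes of the cell, spike-ins left out, are scaled to 1000000. Each protocol was 1 run on cells of 1 line, so a protocol is 1 sample, its cells are not replicates of it, and no test between protocols was made. Intervals below are 95% intervals for read counting alone; reads carry no molecular identifiers.

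Nuclear hormone receptors are transcription factors that a small fat-soluble ligand switches on. Each has a DNA-binding region built on zinc fingers, with a recognition helix that reads the response element, and a ligand-binding region towards its end. Steroid receptors wait with chaperones and then bind DNA in pairs of like subunits, while the retinoic acid and vitamin D receptors sit on DNA paired with a retinoid X receptor. In luminal breast tumours the estrogen receptor drives growth, and the progesterone receptor gene is among its targets.

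The 18 coding bases at the start of the recognition helix are shown because they differ between some of the receptor families. They are written 5′ to 3′ from the GENCODE 44 transcripts (GRCh38), and capitals mark the 3 codons whose encoded residues vary among these receptors. A pair need not differ at all 3: ESR1 and RARA differ in 1 base, in the last capitalised codon.
ESR1: tgtGAGGGCtgcaagGCC
ESR2: tgtGAAGGAtgtaagGCC
PGR: tgtGGGAGCtgtaagGTC
NR3C1: tgtGGAAGCtgtaaaGTT
NR3C2: tgtGGCAGCtgcaaaGTT
RARA: tgtGAGGGCtgcaagGGC
VDR: tgtGAAGGCtgcaaaGGC
Over the 56 translated residues of the zinc finger region, ESR1 and ESR2 were 96.4% identical, and NR3C1 and NR3C2 were also 96.4% identical. PGR shared 92.9% with each of NR3C1 and NR3C2, and 53.6% with ESR1. RARA and VDR were 46.4% identical over the region although the capitalised codons encode the same residues in both.

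ESR1 encodes estrogen receptor alpha, which binds estradiol. The gene (ENSG00000091831) lies on the plus strand of chromosome 6, from 151656691 to 152129619 in GRCh38. In G&T cells ESR1 ranged from 49.2 CPM in well E2 through a median of 178 to 692 in well E1. In Takara cells it ranged from 15.5 through 47.4 to 151 CPM, and in NEB cells from 225 through 830 to 2086. The lowest NEB cell therefore stood above the highest Takara cell, while the G&T range overlapped both. Such a full separation, NEB above Takara, was found for 1.87% of the 11664 genes compared in that pair.

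Pooled over cells, ESR1 reached 235 CPM (interval 225 to 245) in G&T, 73.1 (68.3 to 78.2) in Takara, with 877 (856 to 897) in NEB. NEB was 12.0-fold above Takara (11.2 to 12.9), G&T 3.21-fold above Takara (2.97 to 3.48) and NEB 3.73-fold above G&T (3.56 to 3.92). Differences between cells of 1 protocol were wide beside these: the mean and SD were 246 ± 199 CPM in G&T, 71.7 ± 50.2 in Takara, with 889 ± 572 in NEB (n = 11 cells each). On the log2 scale, with 1 CPM added, the NEB over Takara value of 3.57 was larger than that of 98.2% of the genes compared.

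PGR encodes the progesterone receptor. It lies on the minus strand of chromosome 11, from 101029624 to 101129813 (ENSG00000082175), and its main transcript of 13037 bases is longer than that of 98.7% of protein-coding genes. PGR ranged from 12.5 CPM in well H1 through a median of 397 to 1086 in well C1 among G&T cells. The Takara cells spanned 48.6 through 109 to 448 CPM, and the NEB cells 99.5 through 830 to 2337. All ranges overlapped, but 9 of the 11 NEB cells lay above the highest Takara cell.

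The pooled PGR level was 428 CPM (interval 415 to 441) in G&T, 164 (157 to 172) in Takara, with 1068 (1045 to 1091) in NEB. Its order across protocols was that of ESR1, with smaller ratios. NEB was 6.50-fold above Takara (6.19 to 6.84) and 2.498-fold above G&T (2.41 to 2.59), and G&T was 2.60-fold above Takara (2.47 to 2.75).

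VDR encodes the receptor for active vitamin D. The gene (ENSG00000111424) is on the minus strand of chromosome 12, from 47841537 to 47943048. VDR ranged from 1.04 CPM through a median of 35.8 to 165 in G&T cells, from 0 through 28.1 to 47.4 in Takara cells and from 6.58 through 75.0 to 222 in NEB cells. Only Takara cell D1, of the 33 kept cells, had no VDR read, and the ranges of all protocols overlapped. The pooled levels were 42.3 CPM (38.3 to 46.7) in G&T, 26.9 (24.0 to 30.02) in Takara and 88.5 (82.1 to 95.3) in NEB. A single G&T cell, C1, held 40.3% of that protocol's VDR reads, and without it the G&T level was 28.2 CPM.

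RARA encodes retinoic acid receptor alpha. It lies on the plus strand of chromosome 17, from 40309180 to 40357643 (ENSG00000131759). RARA ranged from 0 CPM in well B2 through a median of 12.5 to 36.7 in well C1 among G&T cells, with reads in 10 of 11. All 11 Takara cells had RARA reads, from 1.03 through 9.05 to 20.3 CPM. No NEB cell had any, neither among the 11 kept nor among the 14 deposited, so every Takara cell lay above every NEB cell. That separation was found for 9.75% of the genes compared.

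The pooled RARA level was 14.7 CPM (12.4 to 17.4) from 140 reads in G&T and 9.22 (7.56 to 11.1) from 108 reads in Takara. For NEB, 0 reads allow a level of up to 0.376 CPM, taking 3 reads over the group as the limit (0.463 by the exact interval). With reads in 0 of 11 cells, the exact interval of the share of cells with reads reaches 28.5%. Against the limit of 3 reads the pooled RARA level was 39.2-fold higher in G&T and 24.5-fold higher in Takara. These folds leave out the counting error of the G&T and Takara levels. RARA was also the only 1 of the 7 receptors whose number of cells with reads was lower in NEB by 6 or more, against 39.0% of genes in the comparison with G&T and 43.7% in that with Takara. Among the 9770 genes with reads in at least 6 G&T and 6 Takara cells, 1011 (10.3%) had, like RARA, no read in any NEB cell, a grouping chosen after the RARA values were seen.

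NR3C1 encodes the glucocorticoid receptor, which binds cortisol. It is on the minus strand of chromosome 5, from 143277931 to 143435512 (ENSG00000113580). Reads were found in 6 of 11 G&T cells, 5 of 11 Takara cells and 4 of 11 NEB cells. The highest cells had 61.5 CPM in G&T (well D1), 27.9 in Takara (B1), with 104 in NEB (A1), and these 3 cells held 46.1%, 57.4% and 50% of their protocol's NR3C1 reads. The median cell had 1.02 CPM in G&T and 0 in the other two. Pooled, NR3C1 stood at 9.37 CPM (7.52 to 11.5) in G&T, 4.01 (2.95 to 5.33) in Takara and 17.3 (14.5 to 20.4) in NEB. With the highest cell left out these levels were 5.43, 1.86 and 9.44 CPM.

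ESR2 and NR3C2 were at or near 0. ESR2, the gene of estrogen receptor beta on chromosome 14 (64084232 to 64338112, minus strand, ENSG00000140009), had 3 reads, all in G&T cell G1, and none in the other 32 kept cells. NR3C2, the gene of the mineralocorticoid receptor on chromosome 4 (148078762 to 148444698, minus strand, ENSG00000151623), had no read in any kept cell. With 3 reads as the limit, a count of 0 allows up to 0.316 CPM in G&T, 0.256 in Takara, or 0.376 in NEB. The exact intervals reach 0.388, 0.315 and 0.463. Neither gene reached the 33 summed reads set for a comparison, and no ratio is given for them.

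**Figure D1:**
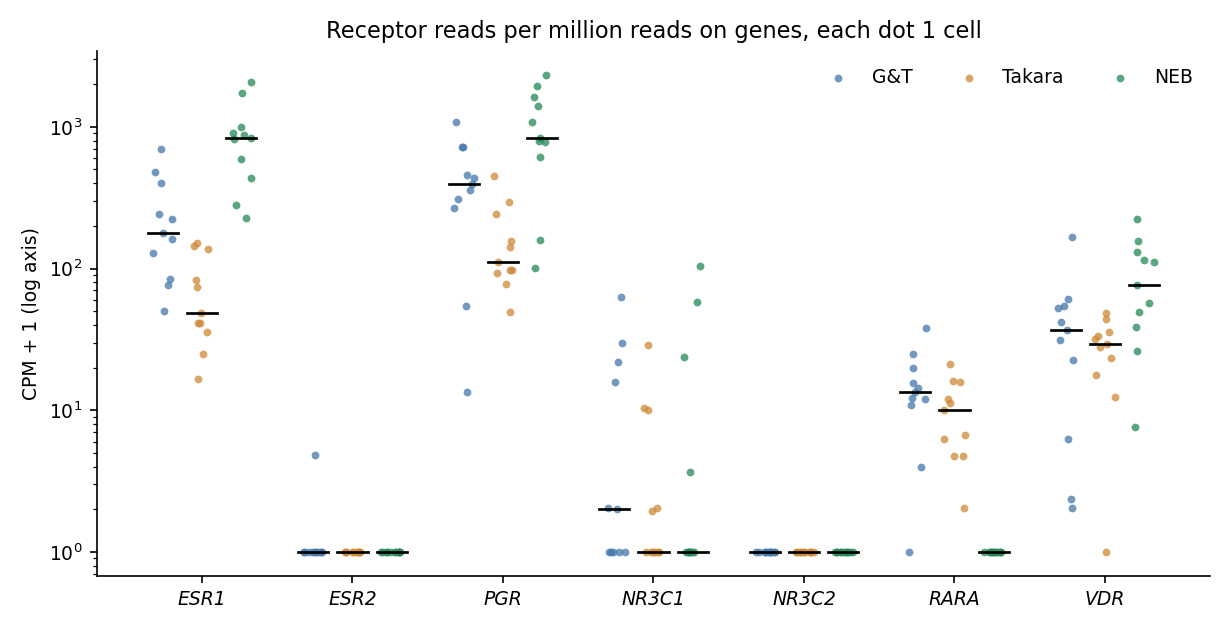
Each dot is 1 kept cell, its height the CPM of the receptor plus 1 on a log axis, coloured by protocol with 11 cells each; black bars are medians. The NEB cells stand above all Takara cells for ESR1 (225 CPM or more against 151 or less) and at 0 for RARA, while NR3C2 lies on the floor in every cell and ESR2 in every cell but G&T cell G1 (3.81 CPM).

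Set beside the other genes, the receptors did not move as 1 block. A gene was counted as different when its pooled CPM, with 1 added, was at least 2-fold apart and the pair had at least 33 reads. ESR2 and NR3C2 had too few reads to be counted in any pair, and shares are of the genes with enough reads (12236 for G&T and Takara, 11824 for G&T and NEB, 11664 for Takara and NEB). ESR1, PGR and NR3C1 were higher in G&T than in Takara (3 of 7; 20.7% of genes), and none of the 7 was higher in Takara (18.4% of genes). ESR1, PGR and VDR were higher in NEB than in G&T (3 of 7; 21.3% of genes), and RARA alone was higher in G&T (1 of 7; 43.0%). ESR1, PGR, NR3C1 and VDR were higher in NEB than in Takara (4 of 7; 24.1%), and RARA alone was higher in Takara (1 of 7; 42.3%). The median log2 ratio over all genes compared was 0.003 for G&T over Takara, -0.57 for NEB over G&T and -0.49 for NEB over Takara.

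Some of these calls lie near the 2-fold line. NR3C1 in G&T over Takara had a log2 ratio of 1.05, which ranged from 0.36 without G&T cell D1 to 1.86 without Takara cell B1, and leaving out any 1 of 12 cells ended the call: G&T A2, B2, D1 and E1, and Takara B2, C1, D1, D2, E1, E2, G1 and H1. For NEB over G&T it was 0.82 and went past the line without G&T cell B2 or D1 (1.51 without D1). VDR in NEB over G&T, at 1.05, ranged from 0.80 without NEB cell C2 to 1.62 without G&T cell C1, and lost the call without G&T D2, E1, E2 or H1 or without NEB C2, G2 or H2. The ESR1, PGR and RARA calls held when any 1 cell was left out.

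The direction for NEB depends on what the reads are divided by. Per 10000 spike-in reads, ESR1 had 122 reads in G&T, 75.4 in Takara, but 66.9 in NEB, and PGR had 221, 169 and 81.6. The methods add the same volume and dilution of spike-ins to every cell. More amplification cycles were run for NEB, and whether they bear on this scale was not tested. On that scale ESR1 in NEB over Takara was -0.17 on log2 in place of 3.57, and PGR was -1.05 in place of 2.69. The median of all genes moved with them, from -0.49 to -3.06, and 0.540% of genes were at least 2-fold higher in NEB and 90.1% in Takara. Relative to that median ESR1 was higher by 2.89 and PGR by 2.02, against 4.05 and 3.18 on the CPM scale. The log2 values on the spike-in scale have 1 read per 10000 spike-in reads added, in place of 1 CPM. The other denominator by itself multiplies all genes of a protocol alike. The smaller distances from the median therefore come from the value added and are no result about the receptors.

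**Figure D2:**
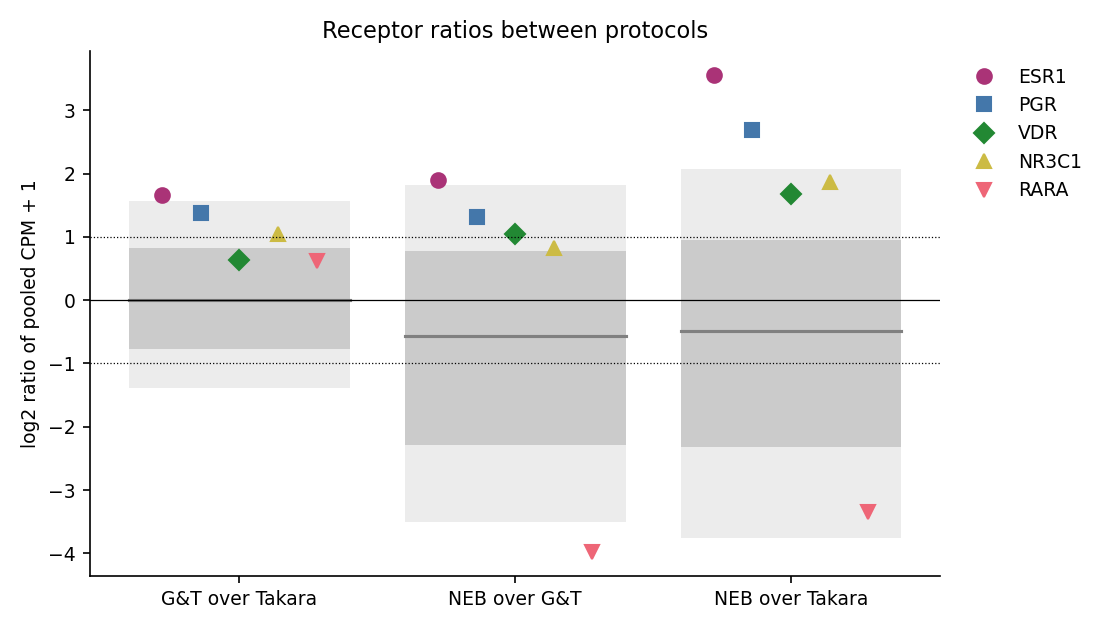
The vertical axis is the log2 ratio of pooled CPM plus 1 for each pair of protocols. Symbols are the 5 receptors with enough reads (ESR2 and NR3C2 are not drawn), dark and light bands hold the middle 50% and 80% of all genes compared, grey lines are their medians and dotted lines mark a 2-fold difference. ESR1 lies above the light band in all 3 pairs (1.67, 1.90 and 3.57), while RARA lies at -3.98 and -3.35 in the pairs with NEB. Those RARA values depend on the 1 CPM added, as NEB had no RARA read.

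The receptors differ in base composition and length. GC content of the main transcript was 40.4% for NR3C1, 41.6% for PGR, 46.9% for ESR1, 54.0% for VDR and 61.9% for RARA, the last higher than in 89.3% of protein-coding genes. Over 11581 genes with a known GC content, the log2 ratio of NEB over Takara was lower at higher GC (Spearman's rho -0.61 across genes, which are not independent replicates). Over the 25 nuclear receptors compared, rho was -0.67, and against transcript length it was 0.56, beside 0.19 for length over all genes. For G&T over Takara, rho against length was 0.77 over 26 nuclear receptors and 0.28 over all genes. For NEB over G&T it was 0.39 and 0.05. Genes at 60% GC or more had a median of -3.06, beside -3.35 for RARA. The RARA value rests on the 1 CPM added, since NEB had no RARA read, and was -6.54 with 0.1 CPM added. Genes at 45 to 50% GC had a median of -0.31 and an upper quartile of 0.84, both below the 3.57 of ESR1, and VDR at 1.68 stood above the upper quartile of -0.02 for genes at 50 to 55% GC. The 1011 genes with no read in NEB had a median GC of 58.2%, against 46.4% for the others. Their median level in Takara was also lower, at 12.1 CPM against 35.2, and RARA there had 9.22. These relations were looked at after the ratios were known, and the part of GC content, length or level in any receptor's ratio was not tested.

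**Figure D3:**
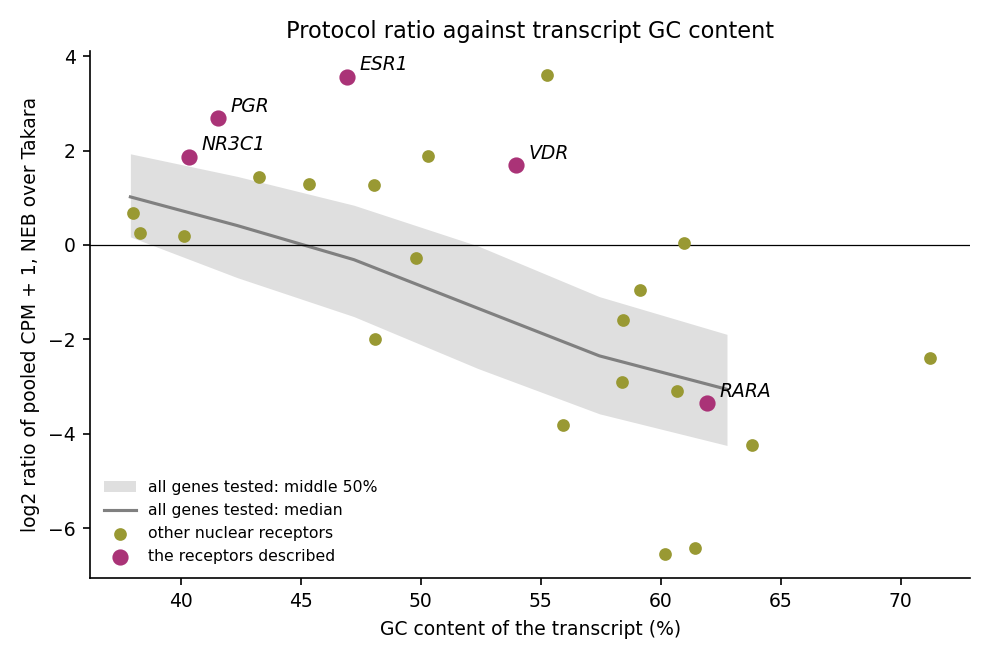
GC content of the main transcript (horizontal, %) is set against the log2 ratio of NEB over Takara for 25 nuclear receptors, with the grey line and band giving the median and middle 50% of all genes compared in 6 classes of GC content. RARA (61.9% GC, -3.35) lies inside the band, and ESR1, PGR, NR3C1 and VDR lie above it. The RARA value depends on the 1 CPM added, as NEB had no RARA read.

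Between receptors, levels were compared per length, as CPM per 1000 bases of exon (RPKM). PGR and ESR1 ranked first and second of the 48 nuclear receptor genes in G&T (29.1 and 17.1 RPKM) and in NEB (72.7 and 63.9). In Takara they ranked 4 and 7 (11.2 and 5.33), below RARG, another retinoic acid receptor (18.03), and the liver X receptor gene NR1H2 (15.9), both of which had no read in NEB. VDR ranked 4 in G&T (7.46), 8 in Takara (4.74), but 3 in NEB (15.6). RARA ranked 10 in G&T (3.11) and 12 in Takara (1.94), and NR3C1 ranked 21, 23 and 10 (1.02, 0.44 and 1.89). Exon lengths are those of all annotated transcripts joined, which may not be the ones used in these cells. They are 14692 bases for PGR and 13726 for ESR1, but the longest single transcripts have 13037 and 6466. With the latter lengths ESR1 would stand above PGR in G&T and NEB.

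Of the 48 genes, 24 had reads in at least 6 cells in G&T, 23 in Takara, but 6 in NEB. The 7 receptors gave 5, 4 and 3 of these, while over all 25364 genes with a read in a kept cell the shares were 41.3%, 42.7% and 17.9%. ESR1 and PGR together took 60.8% of the nuclear receptor CPM in G&T, 35.8% in Takara, against 87.0% in NEB. The nuclear receptors outside the 7 summed to 360 CPM in G&T, 386 in Takara, against 185 in NEB, so their share was 33.1%, 58.2% and 8.28%.

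**Figure D4:**
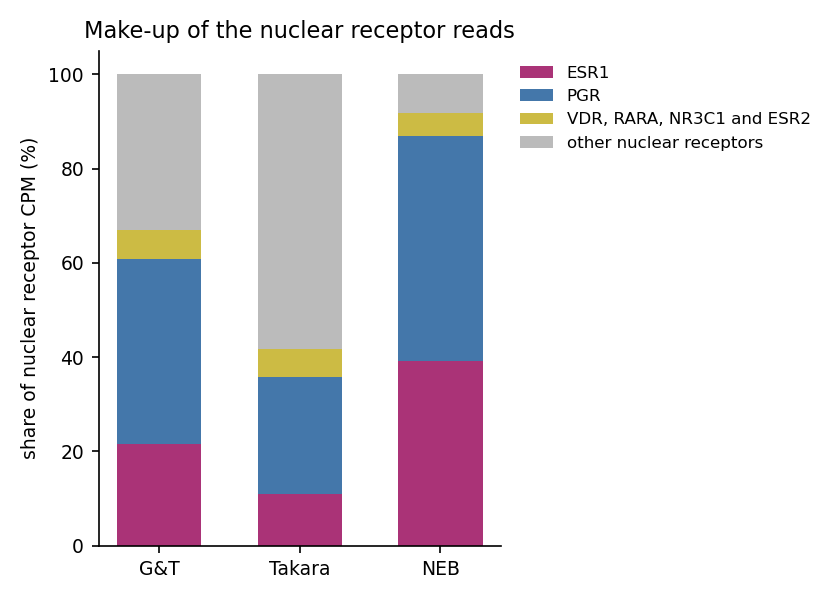
Bars split the summed CPM of the 48 nuclear receptor genes in each protocol into ESR1, PGR, the other receptors described and the remaining genes, as percent of the sum. ESR1 and PGR make up 60.8% in G&T, 35.8% in Takara, against 87.0% in NEB.

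Within single cells ESR1 and PGR were found together: every one of the 33 kept cells had reads of both. PGR had the higher CPM in 9 of 11 G&T cells, 11 of 11 Takara cells and 7 of 11 NEB cells, with a median ratio of PGR to ESR1 of 1.79, 2.27 and 1.34. The extremes were 0.164 in G&T cell H1 and 6.10 in Takara cell E2. These ratios are not per length, so they do not rank the transcripts by abundance. The main transcript has 13037 bases for PGR and 6327 for ESR1. Across the 11 cells of a protocol, log2(CPM + 1) of ESR1 and PGR had a Pearson r of 0.69 in G&T, 0.63 in Takara, with 0.52 in NEB (Spearman's rho 0.73, 0.65 and 0.49). Without the 2 cells farthest from the ESR1 median r was 0.60, 0.46 and 0.34. The cells of a protocol share a run and differ in depth and content, and the values are given as a description. VDR showed no such common sign with ESR1 (r 0.22 in G&T, -0.48 in Takara, with -0.08 in NEB), nor with PGR (0.65, -0.31 and -0.51).

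**Figure D5:**
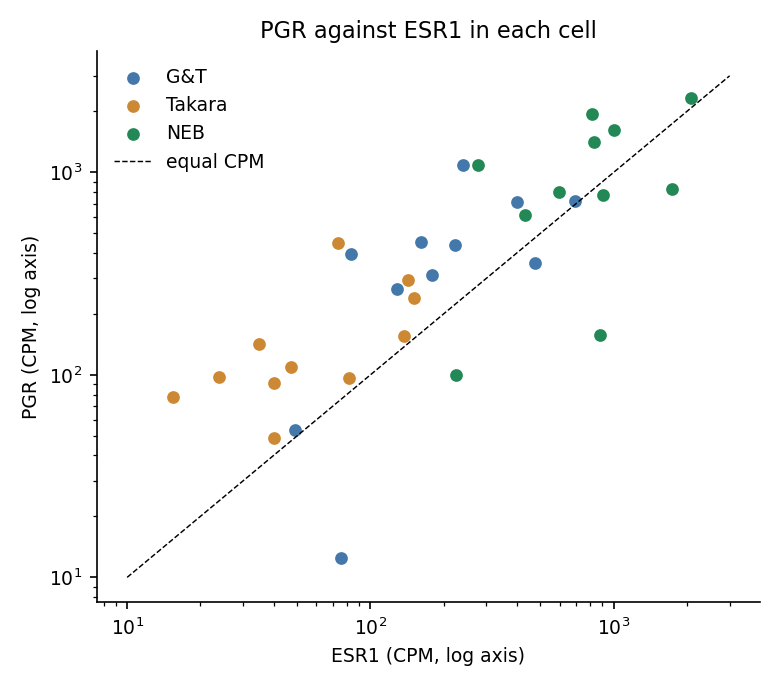
Each dot is 1 kept cell, with ESR1 CPM on the horizontal and PGR CPM on the vertical log axis, coloured by protocol; the dashed line marks equal CPM. All 11 Takara cells lie above the line, against 9 G&T cells and 7 NEB cells. CPM is not corrected for transcript length.

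The genes most like each receptor were sought among 7342 genes over the 33 cells, by the correlation of log2(CPM + 1) after each protocol's mean was removed. For ESR1 these were KRT19, a luminal keratin (r 0.63), RUBCN (0.63) and GSN, an actin-severing protein (0.62), where the median gene had 0.06 and 1 gene in 100 exceeded 0.49. For PGR they were ORAI2 (0.78), KCTD3 (0.75) and RHOT2 (0.73), with a median of 0.13. For VDR they were KYNU (0.63), XPO6 (0.63) and NF1 (0.58), with a median of 0.04. Several rested on some protocols more than others: ORAI2 had r of 0.85 in G&T and 0.91 in NEB but 0.28 in Takara, and RHOT2 had 0.94 in G&T and 0.31 in NEB.

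Partners of the receptors were widely read. HSP90AA1 and HSP90AB1, the chaperones that hold unliganded steroid receptors, had reads in every cell, at 2222 CPM or more in each protocol. The co-chaperones FKBP4 and STIP1 were lower in NEB (80.3 and 84.0 CPM) than in G&T (280 and 208) or Takara (920 and 620). RXRA, a DNA-binding partner of RARA and VDR, had reads in 11, 11 and 5 cells (24.5, 12.1 and 12.4 CPM, the last 6.41 without NEB cell A2). RXRB, the other partner listed, had 11.5 CPM in G&T, 6.49 in Takara, but no read in NEB. Of these 8 genes, 0 were at least 2-fold higher in G&T than in Takara and 2 lower (all genes 20.7% and 18.4%). In NEB 0 were higher than in G&T and 3 lower (21.3% and 43.0%), and 1 was higher than in Takara, HSP90AA1, and 3 lower (24.1% and 42.3%).

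Several target genes were not ordered across protocols as their receptors were. Of the 6 listed targets of ESR1, 5 had reads in at least 6 cells in G&T and Takara, and 2, PGR and CCND1, in NEB. GREB1, a classical estrogen response gene, had 99 CPM in G&T, 47 in Takara, with 26.2 in NEB, and TFF1 had 282, 96.8 and 4.14, whereas ESR1 was highest in NEB. Single cells carried much of this: GREB1 in NEB was 4.10 without cell D2, and TFF1 was 103 without G&T cell H1 and 0.276 without NEB cell E1. MYB, like PGR, was at least 2-fold higher in NEB (55.2 CPM) than in G&T (21.4) or Takara (24.2), as ESR1 was, but stood at 34.0 without NEB cell E2. CCND1 had 187, 110 and 71.1 CPM, the last 39.5 without NEB cell A1. XBP1, the remaining listed target, was listed at 0 in all protocols, which is unusual for a luminal line and is not read as its level. Of the targets of NR3C1, FKBP5 was the only one with reads in at least 6 cells of every protocol (69.2, 118 and 103 CPM, the last 58.8 without NEB cell C2). CYP24A1, the vitamin D breakdown enzyme and a target of VDR, had reads in 6 of 11 NEB cells (4.14 CPM, 1.23 without cell C1) and in no G&T or Takara cell. Of the 3 listed targets of RARA, RARB and CYP26A1 had at most 0.526 CPM, and DHRS3 had 9.58 CPM in G&T, 12.4 in Takara (reads in all 11 cells) but 16.7 in NEB, where 2 cells had reads and RARA none. Without the highest DHRS3 cell, D2 in each protocol, these were 4.92, 11.4 and 6.42. CRABP2, which carries retinoic acid to its receptor, had 448 CPM in G&T, 415 in Takara, with 119 in NEB. CYP19A1, the aromatase gene, was read in 1 G&T cell only, and HSD17B1, which makes estradiol from estrone, had 5.05, 4.86 and 0 CPM.

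Neighbouring genes could share reads with some of the receptors, and it is not stated whether strand was used in counting. RARA-AS1, which overlaps 556 exon bases of RARA on the opposite strand, had 0 reads in every protocol. If strand was not used, reads in those bases were left out of both counts, and this 0 does not show otherwise. The lncRNA gene ENSG00000214770, which shares 523 exon bases with ESR2 on the same strand, had 3, 12 and 0 reads. Reads in the shared bases would be left out of both counts, so the ESR2 count may be too low. SYNE2, opposite ESR2 with no shared exon base, had 323, 67.1 and 174 CPM, while ESR2 had 3 reads in all. SYNE1, opposite ESR1 with no shared exon base, had 16, 12 and 60 reads, few beside the 2231, 857 and 6989 of ESR1.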

How the data were processed

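The authors sorted single T47D cells, trimmed reads with Trim Galore 0.4.0, aligned them to GRCh38 with STAR 2.5.2b and deposited raw read counts per gene, 1 table per protocol. The annotation release and the strand column are not given in the sources used here. Reads without a gene (17.7% to 40.6% per kept cell) and the 92 spike-ins stayed out of the totals. Cells had to pass the study's thresholds: at least 1000 genes, a library of at least 600000 reads, at most 30% mitochondrial and 25% spike-in reads. Counts were summed over the kept cells, scaled to CPM and compared as log2 of CPM plus 1 among genes with at least 33 reads per pair; 2-fold was the call. Intervals are exact Poisson or binomial at 95%. The script was tested on simulated data with counting error only. They held no spread between cells, so this test does not bear on how firm the receptor calls are. Positions, lengths and GC content come from GENCODE 44. The receptors, the gene lists and the rule for the named genes (the receptors, the lists, the 3 most correlated genes) were chosen with earlier results of these data known. Alternatives were other denominators, pooling, pseudocounts, edgeR 4.0.16 TMM factors, detection at 5 reads, thinning and leaving out cells. Python 3.11.15, pandas 2.3.3 and scipy 1.17.1 were used.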

Additional observations from a re-analysis of the deposited data

Results flagged for a closer look

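The 7 wells removed by the quality thresholds take no part in the comparisons but held receptor reads, which is why they are listed. They had 667 reads of ESR1 in 3 wells, 1086 of PGR in 4, 71 of VDR in 4, 18 of RARA in 2 and 10 of NR3C2 in 2, both of G&T. The NR3C2 reads (9 in well F1, 1 in C2) are the only ones of that gene in any deposited cell. The 3 removed wells with over 90% spike-in reads, NEB F1 and Takara C2 and F1, had none of any receptor on 1421 to 15325 reads on genes.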

How the results depend on the processing

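Dividing by spike-in reads changed the calls. On that scale the log2 ratio of NEB over G&T was -0.85 for ESR1, -1.43 for PGR and -1.56 for VDR, and that of NEB over Takara was -0.17 for ESR1, -1.05 for PGR, -1.15 for NR3C1 and -1.89 for VDR, all opposite in sign to the CPM values. The number of receptors at least 2-fold higher was then 0 in NEB against either other protocol, 0 for G&T over Takara, and 4 for each of G&T and Takara over NEB; of all genes, 83.6% were then higher in G&T than in NEB, 90.1% in Takara than in NEB and 5.97% in G&T than in Takara. The spike-in scale moved the median of all genes by -0.88, -1.65 and -2.58 in the 3 pairs. These shifts, ratios and shares have 1 read per 10000 spike-in reads added and depend on it, most for genes with few reads. Before that addition NR3C1 had 4.14 reads per 10000 spike-in reads in Takara and 1.32 in NEB. Why the share of spike-in reads differed between protocols was not tested. Calls near the line were lost elsewhere, taking a count from 3 to 2: NR3C1 in G&T over Takara was 0.92 with all deposited cells and 0.99 with TMM factors, and VDR in NEB over G&T was 0.94 on nuclear genes. The mean of cells, a pseudocount of 0.1 CPM and no filter on reads ended no receptor call. The pseudocount of 0.1 CPM moved RARA to -7.21 in NEB over G&T and -6.54 in NEB over Takara. With detection at 5 reads or every cell thinned to 624772 reads, the number of receptors with reads in at least 6 cells was 4 in place of 5 in G&T, and still 4 in Takara and 3 in NEB. Values of listed genes without their highest cell were added after seeing the data. No paired analysis was possible because wells of different protocols are different cells and no test was made. A single cell without reads of a low receptor, NR3C1 above all, cannot be told apart from one whose reads were missed.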
